A study of Rattus norvegicus with 12 samples.

Results

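The 6 immediate early genes described here are Fos (ENSRNOG00000008015), Junb (ENSRNOG00000042838), Egr1 (ENSRNOG00000019422), Nr4a1 (ENSRNOG00000007607), Arc (ENSRNOG00000043465) and Dusp1 (ENSRNOG00000003977), chosen by name and identifier from the 25908 genes of the deposited table. All 6 were found. Their levels were measured by RNA sequencing in the brain and testis of Sprague Dawley rats, adult males 15 weeks old. The rats either carried human DNMT3A (hDNMT3A), the gene of a DNA methyltransferase that sets methyl groups on unmethylated cytosines, or were wild type. The groups were transgenic brain, wild-type brain, transgenic testis and wild-type testis, with 3 libraries each. Which promoter drives the transgene, how many founder lines there were and which part of the brain was taken is not stated in the labels. Nor do they say whether replicates are separate rats, so the p-values reflect variation among libraries that may in part be technical. The tissue labels could not be checked against marker genes, because the table gives identifiers without names. Levels are in FPKM, reads divided by gene length and library size, so they are shares of a library and can be compared between genes.

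Immediate early genes are transcribed within minutes of a stimulus, such as neuronal firing, a hormone or stress, without new protein having to be made first. In neurons, calcium and kinase signals reach the factors CREB and SRF, which bind CRE and CArG sequences at many such genes. Fos and Junb encode subunits of the transcription factor AP-1. Egr1 encodes a zinc finger transcription factor and Nr4a1 an orphan nuclear receptor, which luteinizing hormone induces in rodent Leydig cells. Arc encodes a protein of the postsynapse that takes part in the removal of glutamate receptors from the membrane. Dusp1 encodes a phosphatase that inactivates MAP kinases and so limits the signal that induces it. Their mRNAs are short-lived, and brain levels at any moment are known to depend on what the animal did shortly before tissue was taken.

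The promoters are shown as background, being where such stimuli act. Whether these sequences bear on the levels described below was not tested. RefSeq (build GRCr8) gave the 250 bases before the start for 4 of the 6 genes. These are chr19:40080876-40081125 for Junb, chr18:26736828-26737077 for Egr1, chr7:134259888-134260137 for Nr4a1 and chr10:17184603-17184852 for Dusp1, each on the plus strand. Capitals mark the CRE core TGACG, on either strand (CGTCA on the strand shown), and CArG boxes.
Junb: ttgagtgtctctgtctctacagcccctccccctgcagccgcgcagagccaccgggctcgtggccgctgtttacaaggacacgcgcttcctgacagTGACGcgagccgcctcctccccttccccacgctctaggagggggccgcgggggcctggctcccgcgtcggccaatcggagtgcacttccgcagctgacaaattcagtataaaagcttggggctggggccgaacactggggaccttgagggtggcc
Egr1: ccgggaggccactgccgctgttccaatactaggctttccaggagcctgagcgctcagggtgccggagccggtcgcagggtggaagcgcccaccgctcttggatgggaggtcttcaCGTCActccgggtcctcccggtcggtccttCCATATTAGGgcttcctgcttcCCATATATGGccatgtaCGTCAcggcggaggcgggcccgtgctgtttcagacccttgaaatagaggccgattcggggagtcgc
Nr4a1: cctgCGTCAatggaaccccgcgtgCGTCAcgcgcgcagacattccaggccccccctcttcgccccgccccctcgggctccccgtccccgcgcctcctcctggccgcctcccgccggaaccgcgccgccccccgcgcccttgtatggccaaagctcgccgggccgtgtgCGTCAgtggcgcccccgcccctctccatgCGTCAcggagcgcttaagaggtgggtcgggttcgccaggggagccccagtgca
Dusp1: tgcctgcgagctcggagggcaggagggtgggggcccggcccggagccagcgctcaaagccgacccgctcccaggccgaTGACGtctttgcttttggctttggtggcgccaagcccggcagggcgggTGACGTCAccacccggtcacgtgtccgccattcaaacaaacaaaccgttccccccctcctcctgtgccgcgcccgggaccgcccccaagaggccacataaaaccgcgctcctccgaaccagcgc

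Each of the 4 promoters held the CRE core, which was present in 18.2% of all 33469 promoters of this length. Nr4a1 had 4 cores, the nearest beginning 53 bases before the start, and Junb had 1, at 155 bases. Dusp1 had 3 cores, of which those at 124 and 121 bases overlap within 1 full CRE, TGACGTCA, a sequence found in 1.59% of promoters. The Egr1 promoter had 2 cores, at 135 and 66 bases, and 2 CArG boxes, at 105 and 83 bases. A CArG box was found in 1.5% of promoters, and 2 or more in 0.0209%. The windows of Junb, Nr4a1 and Dusp1 held no CArG box. Of the other sequences searched on both strands, the TATA box TATAAA (12.9% of promoters) was found in Junb, 49 bases before the start. The GC box GGGCGG (30.5% of promoters), bound by Sp1, was found in Nr4a1 and Dusp1, 3 and 2 times. The AP-1 site TGANTCA (6.34%), the Egr site GCGTGGGCG (0.478%) and the Nr4a1 site AAAGGTCA (1.24%) were in none of the 4 windows. These are matches of letters and not measured binding sites.

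In brain the mean of each of the 6 genes was lower in the transgenic group, but the groups overlapped for each gene and none was called. Calls needed an adjusted p below 0.05 (Benjamini-Hochberg) in limma's moderated test of log2(FPKM + 0.5), two-sided, run on all genes that averaged 1 FPKM or more over the libraries compared. Of 13827 genes tested in brain, 16 were called (0.116%), 5 of them higher (0.0362%) and 11 lower in transgenic brain (0.0796%), and 0 of the 6. Groups that did not overlap, as for 0 of the 6, were found for 6.15% of genes in the higher and 7.2% in the lower direction. In whole tissue, fewer cells that transcribe a gene and less RNA per cell cannot be told apart.

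The AP-1 subunits were the first pair. Fos stood at 2.48, 4.49 and 9.42 FPKM in transgenic brain, against 7.76, 11.2 and 13.4 FPKM in wild-type brain. Of the 9 pairs of a transgenic and a wild-type library, 8 had the lower level in the transgenic one. Its mean was 5.46 ± 3.57 FPKM in transgenic brain and 10.8 ± 2.85 FPKM in wild-type brain (SD, n = 3 each), and the log2 fold change was -1.06 (SE 0.41, 95% interval -2.03 to -0.10, adjusted p = 0.58 by limma). This was the largest difference among the 6 genes, and 1.24% of the genes tested had a fold change as low or lower. Without transgenic brain replicate 1 the log2 fold change was -0.65 (limma, adjusted p = 0.822), and without transgenic brain replicate 3 it was -1.52 (adjusted p = 0.374), the ends of the range over the alternatives. Junb stood at 17.6, 26 and 30.9 FPKM in transgenic brain, against 27.8, 30.8 and 36.6 FPKM in wild-type brain. Here 7 of 9 pairs were lower in the transgenic library. The log2 fold change was -0.38 (SE 0.20, adjusted p = 0.752 by limma), with -0.15 without transgenic brain replicate 1 and -0.55 without transgenic brain replicate 3.

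The other transcription factors came next. Egr1, the most abundant of the 6 in brain, stood at 35.5, 39.5 and 49.5 FPKM in transgenic brain, against 37.3, 54.6 and 53.9 FPKM in wild-type brain. The ranges of the genotypes overlapped over most of their width. Its log2 fold change of -0.22 (SE 0.18, adjusted p = 0.859 by limma) was the smallest of the 6, and 12.3% of genes were as low or lower. Without transgenic brain replicate 1 this fold change was -0.11, and without wild-type brain replicate 1 it was -0.40. Nr4a1 stood at 18.1, 19 and 28.1 FPKM in transgenic brain, against 21.6, 35.2 and 34.7 FPKM in wild-type brain. Transgenic replicate 3 exceeded wild-type replicate 1, and every other pair had the lower level in the transgenic library. The log2 fold change of Nr4a1 was -0.48 (SE 0.23, adjusted p = 0.693 by limma). Without wild-type brain replicate 2 this fold change was -0.36, and without wild-type brain replicate 1 it was -0.70.

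Arc, the synaptic effector, stood at 23.7, 27 and 41.9 FPKM in transgenic brain, against 35.1, 55 and 52.8 FPKM in wild-type brain. The same 2 libraries, transgenic replicate 3 and wild-type replicate 1, made the only pair out of order. Its mean was 30.9 ± 9.71 FPKM in transgenic brain and 47.6 ± 10.9 FPKM in wild-type brain (SD, n = 3 each), a log2 fold change of -0.63 (SE 0.24, 95% interval -1.20 to -0.07, adjusted p = 0.575 by limma). Without transgenic brain replicate 1 this fold change was -0.47, and without transgenic brain replicate 3 it was -0.87. Dusp1, the inhibitor of the inducing kinases, stood at 6.75, 13.4 and 22.7 FPKM in transgenic brain, against 11.5, 19.5 and 24 FPKM in wild-type brain. Only 6 of 9 pairs were lower in the transgenic library. Its log2 fold change was -0.44 (SE 0.43, adjusted p = 0.901 by limma), with -0.005 without transgenic brain replicate 1, -0.84 without transgenic brain replicate 3 and -0.74 without wild-type brain replicate 1.

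**Figure D1:**
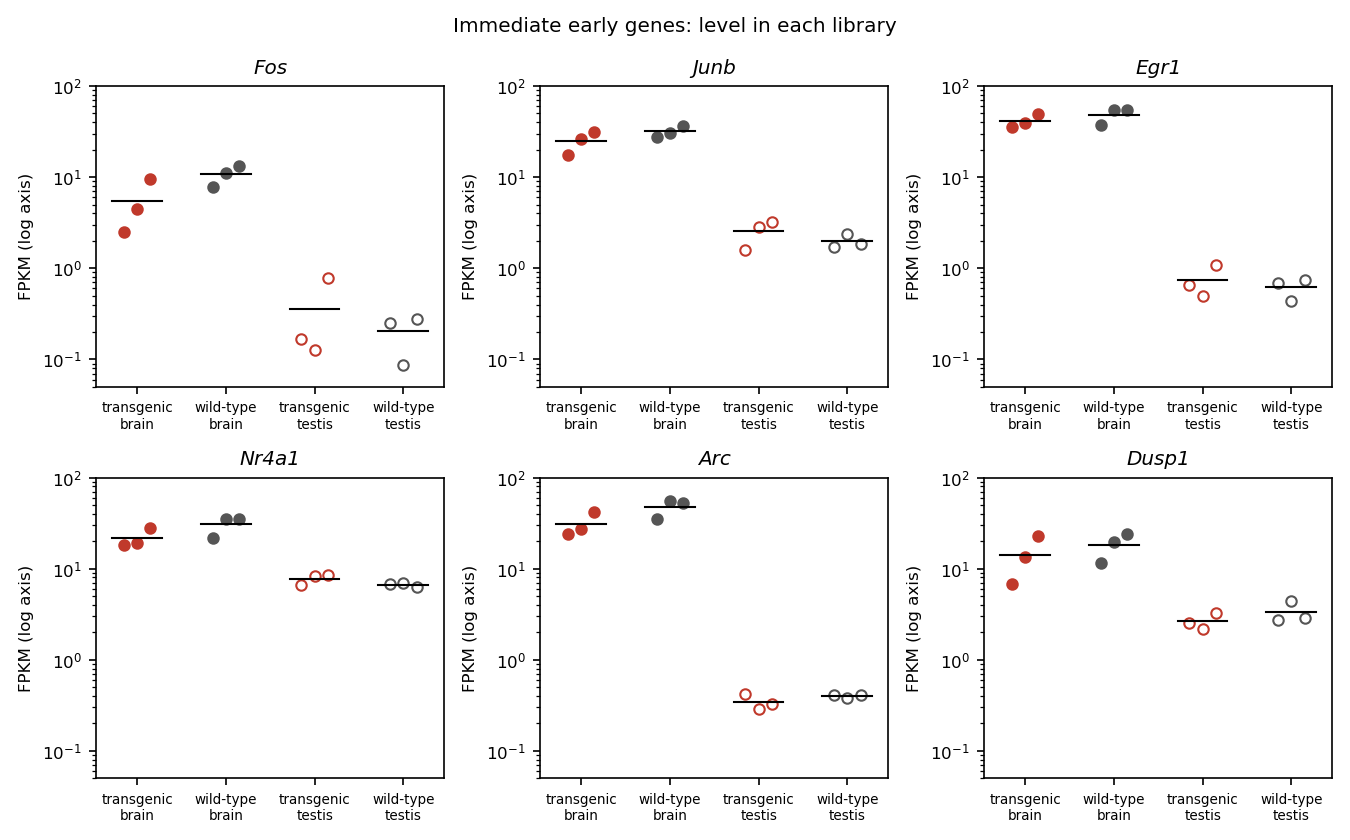
FPKM of each gene in the 12 libraries on a log axis, with 1 point per library (red, transgenic; grey, wild type; filled, brain; open, testis; replicates 1 to 3 from left to right) and a line at the mean of each group of 3. Brain lies above testis for all 6 genes, while the genotypes overlap in each tissue.

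Before adjustment, Fos and Arc were below 0.05 in limma's test, as were 7.87% of all genes tested. The median log2 fold change was -0.46 over the 6 genes and 0 over all genes tested, 50% of which were lower in transgenic brain. The 6 directions are not 6 independent observations, because the genes were read in the same 6 libraries and varied together in them. The adjusted p of the 6 genes ran from 0.343 to 1 over 15 alternative settings, voom on recovered reads among them, and none was called in any.

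**Figure D2:**
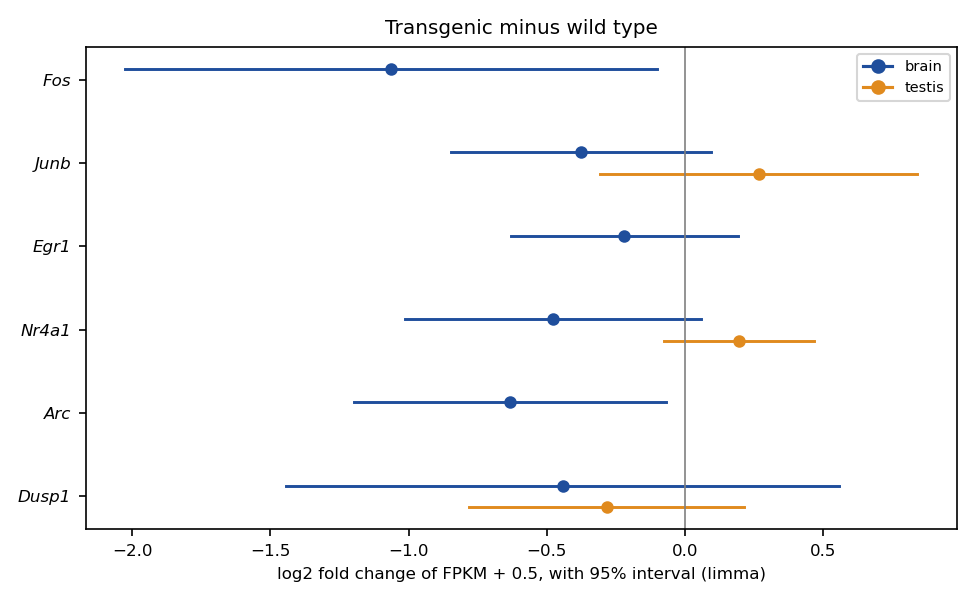
Log2 fold change of FPKM + 0.5, transgenic minus wild type, in brain (blue) and testis (orange), with the 95% interval from limma. The 6 brain points lie below 0, from -1.06 for Fos to -0.22 for Egr1, and only the intervals of Fos and Arc leave out 0 before adjustment; Fos, Egr1 and Arc were under the filter in testis.

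Brain libraries of the same genotype also differed, and the 6 genes shared these differences. Transgenic brain replicate 1 was the lowest of the 6 brain libraries for all 6 genes. Wild-type replicate 3 was the highest for Fos, Junb and Dusp1, and wild-type replicate 2 for Egr1, Nr4a1 and Arc. Many of these ranks were within counting error. Egr1 stood at 54.6 FPKM in wild-type replicate 2 and 53.9 FPKM in wild-type replicate 3. The counting interval of the highest library overlapped that of another for every gene but Junb. That of the lowest library did so for Egr1 and Nr4a1 only. Of the 15 pairs of brain libraries, 12 were in the same order for all 6 genes, among them 5 of the 6 pairs within a genotype. The pairs that were not were transgenic replicate 2 with wild-type replicate 1, transgenic replicate 3 with wild-type replicate 2, and wild-type replicates 2 and 3.

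Averaged over the 6 genes, each centred on its own mean, log2(FPKM + 0.5) was -0.75, -0.31 and 0.27 in transgenic brain replicates 1, 2 and 3, against -0.13, 0.41 and 0.53 in wild-type brain replicates 1, 2 and 3. Transgenic replicate 3 was above the mean of each of the 6 genes, as were wild-type replicates 2 and 3, and transgenic replicates 1 and 2 were below it for all 6. The size of the swing differed between genes. The highest brain library exceeded the lowest 5.41-fold for Fos and 3.55-fold for Dusp1, and 2.32-fold for Arc, 2.09-fold for Junb, 1.95-fold for Nr4a1 and 1.54-fold for Egr1. Counting error was smaller than these differences. Fos had 60 reads in the lowest library, where the exact 95% counting interval of its level was 1.89 to 3.19 FPKM, and 324 reads in the highest, with an interval of 12 to 14.9 FPKM. Such intervals cover counting error only.

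**Figure D3:**
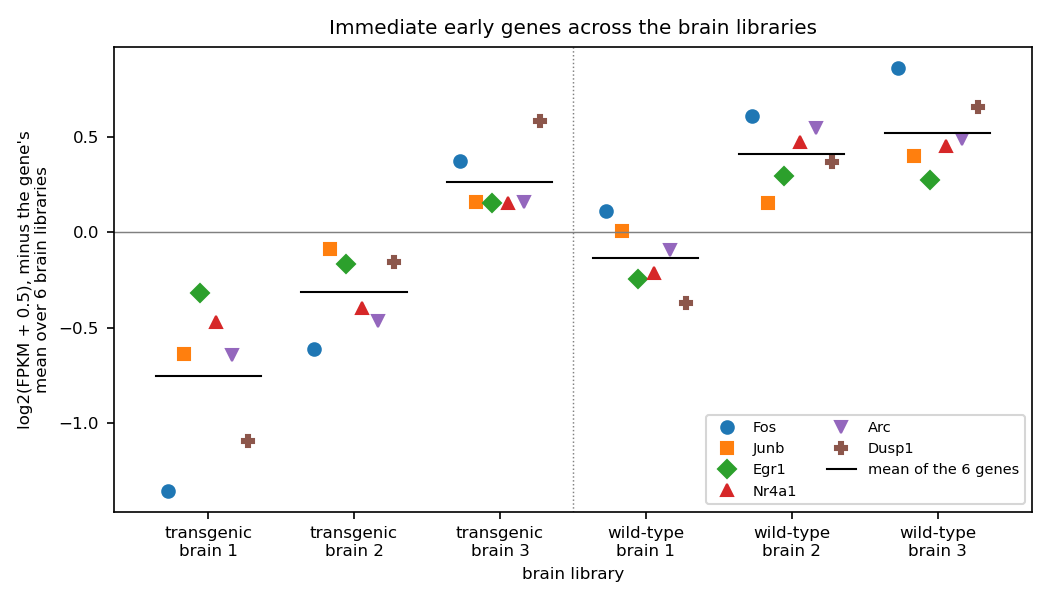
Level of each gene in the 6 brain libraries as log2(FPKM + 0.5) minus the mean of that gene over the 6 libraries, with 1 symbol per gene and a line at the mean of the 6 genes (transgenic left of the dotted line, wild type right of it). The means are -0.75, -0.31 and 0.27 in transgenic libraries and -0.13, 0.41 and 0.53 in wild-type libraries, and the symbols of a library move together.

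The library with the lowest levels, transgenic replicate 1, held 15237105 reads, and the highest, wild-type replicate 3, held 15209340. All 12 libraries lay between 14004547 and 16112149 reads. Wild-type brain replicate 2 held testis transcripts: 203 genes abundant in testis and low in most brain libraries, and chosen for that, stood there at 1.59% of their testis level, against 0.0511% to 0.33% in the other 5 brain libraries. That share of the testis level of Nr4a1, the most abundant of the 6 in testis, is 0.115 FPKM, and Nr4a1 stood at 35.2 FPKM in that library. RNA quality, time of death and dissection are not given in the labels, and their part in the spread was not tested.

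Set against other genes, the spread was wide. The residual SD of log2(FPKM + 0.5) around the genotype means was 0.673 for Fos and 0.705 for Dusp1 in brain, at the 95.7th and 96th percentile of the 13827 genes, whose median was 0.14. Arc (0.39), Nr4a1 (0.37), Junb (0.32) and Egr1 (0.28) were at the 90.2nd, 89th, 86.2nd and 82.3rd percentile. The ratio of the highest to the lowest library, with 0.5 FPKM added to each, was also ranked. By it Fos, Dusp1 and Arc were at the 96.7th, 95.2nd and 91.7th percentile. Junb, Nr4a1 and Egr1 were at the 89.6th, 87.9th and 74.4th. Low genes vary more than abundant ones, so each gene was also ranked among genes of similar level, with a brain mean within a factor of 2 of its own. There all 6 were at or above the 96.2nd percentile, and Dusp1 was at the 99.2nd among 5373 genes. These ranks describe the libraries and carry no test.

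**Figure D4:**
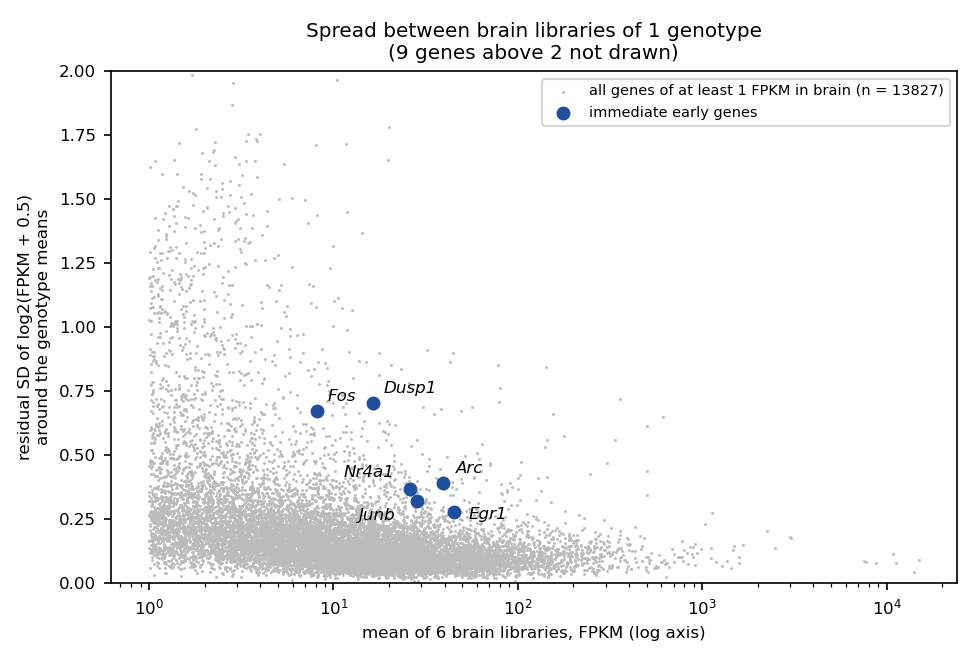
Residual SD of log2(FPKM + 0.5) around the genotype means (vertical axis) against the mean of the 6 brain libraries in FPKM (log axis), with 1 grey point for each of 13827 genes (those above an SD of 2 are not drawn) and blue points for the immediate early genes. The blue points lie above most genes of the same level, with Fos at 0.673 and Dusp1 at 0.705 the highest of the 6.

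In testis the 6 genes were low, and those that passed the filter did not differ between genotypes beyond the spread. Nr4a1 was the most abundant, at 6.58, 8.26 and 8.45 FPKM in transgenic testis, against 6.7, 6.99 and 6.33 FPKM in wild-type testis. The wild-type values lay close together, and 1 of the transgenic values fell among them. The log2 fold change was 0.20 (SE 0.12, adjusted p = 0.592 by limma). Dusp1 stood at 2.5, 2.16 and 3.24 FPKM in transgenic testis, against 2.75, 4.43 and 2.85 FPKM in wild-type testis. Junb stood at 1.6, 2.84 and 3.24 FPKM in transgenic testis, against 1.7, 2.39 and 1.86 FPKM in wild-type testis. The log2 fold changes were -0.28 for Dusp1 (SE 0.21, adjusted p = 0.699) and 0.27 for Junb (SE 0.24, adjusted p = 0.758 by limma), and the groups overlapped for each.

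Of the 14572 genes tested in testis 84 were called (0.576%), 38 higher (0.261%) and 46 lower (0.316%) in transgenic rats, and of the 6 immediate early genes 3 were tested and 0 called. Groups did not overlap for 0 of the 6, against 9.94% of genes tested in the higher and 7.75% in the lower direction. Fos, Egr1 and Arc were not among the genes tested. None of the 3 tested, Junb, Nr4a1 and Dusp1, was below 0.05 before adjustment in limma's test, against 11.1% of all genes tested. Egr1 stood at 0.657, 0.495 and 1.09 FPKM in transgenic testis, against 0.693, 0.438 and 0.74 FPKM in wild-type testis. Arc stood at 0.416, 0.29 and 0.328 FPKM in transgenic testis, against 0.413, 0.385 and 0.414 FPKM in wild-type testis. Both were under the filter, and their group ranges overlapped. Fos had the fewest reads, 4, 3 and 20 in transgenic testis, against 6, 2 and 7 in wild-type testis. That is 0.167, 0.127 and 0.781 FPKM in transgenic testis, against 0.248, 0.0863 and 0.276 FPKM in wild-type testis. With the reads of each group summed, the transgenic to wild-type ratio of Fos was 1.79, with an exact 95% counting interval of 0.919 to 3.62, which leaves out the spread between libraries. Most of the transgenic reads were in replicate 3, and without it the ratio was 0.714 (0.246 to 1.86), in the other direction. For Egr1 the ratio was 1.2 (0.902 to 1.61), and 0.918 (0.642 to 1.3) without that library. Without the filter, limma gave adjusted p-values of 0.852 for Fos, 0.886 for Egr1 and 0.838 for Arc.

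Among genes of similar level, the 3 genes tested ranked lower by spread in testis than in brain, a difference that was not tested. Nr4a1 had a residual SD of 0.14 in testis, at the 44.3rd percentile among genes of similar level, against 0.37 and the 97.4th percentile in brain. Dusp1 had 0.295 and the 71.5th percentile in testis, against 0.705 and the 99.2nd in brain. Junb had 0.34 and the 73.7th percentile in testis, against 0.32 and the 96.8th in brain. Over all genes tested, Junb did not rank lower in testis (86.9th percentile) than in brain (86.2nd). Dusp1 was at the 83rd against the 96th, and Nr4a1 at the 48.2nd against the 89th. Genes at the level of Junb and Dusp1 had a median residual SD of 0.22 and 0.20 in testis, against 0.11 and 0.12 in brain.

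The tissues differed more than the genotypes. All 6 genes were higher in brain than in testis, in transgenic and in wild-type rats, with no overlap between the libraries of the tissues. Most genes differ between these tissues. In transgenic rats 89.1% of 16102 genes were called, 47.6% higher and 41.5% lower in brain, and without overlap 47.7% were higher and 41.8% lower. In wild-type rats 89.7% of 16115 genes were called, 48.2% higher and 41.5% lower in brain, and without overlap 48.8% were higher and 42% lower. A call by itself therefore says little, and the sizes are of more use. Fos, Egr1 and Arc passed the filter only through their brain levels and had to differ, so their values are given as a description with no test.

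Arc had the largest ratio. It averaged 30.9 ± 9.71 FPKM in transgenic brain and 0.345 ± 0.065 FPKM in transgenic testis (SD, n = 3 each), a ratio of 89.6. In wild-type rats it averaged 47.6 ± 10.9 FPKM in brain and 0.404 ± 0.0162 FPKM in testis (SD, n = 3 each), a ratio of 118. Egr1 came next, with ratios of 55.5 in transgenic and 77.9 in wild-type rats.

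For Fos the ratio of mean levels was 15.2 in transgenic and 53 in wild-type rats. Reads put these at 14.8 (exact 95% counting interval 9.99 to 22.7) and 52.3 (31.5 to 93.9). The testis values rest on 27 reads in the 3 transgenic and 15 in the 3 wild-type libraries. The transgenic ratio of reads was 37 (17.8 to 92.6) without transgenic testis replicate 3 and 9.48 (6.29 to 14.8) without transgenic brain replicate 3, so that single libraries moved it beyond its counting interval. Junb, which with Nr4a1 and Dusp1 passed the filter in each tissue, was 9.71 times higher in brain in transgenic rats (adjusted p = 1.28e-05) and 16 times in wild-type rats (adjusted p = 7.24e-07 by limma). The ratios were smallest for Dusp1 (5.43 in transgenic, 5.48 in wild-type rats) and Nr4a1 (2.8 in transgenic, 4.57 in wild-type rats). For Nr4a1 the log2 fold change was 1.41 (SE 0.18, adjusted p = 0.000136) in transgenic and 2.08 (SE 0.19, adjusted p = 4.53e-05 by limma) in wild-type rats. The fitted log2 fold changes of the other genes lay between 2.10 and 5.09 in transgenic rats and between 2.26 and 5.44 in wild-type rats, Arc aside. Being on the log2(FPKM + 0.5) scale, they understate the ratios of genes that are low in testis.

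Scaling each library to its median log2 ratio moved the median of all genes from 0.21 to -0.19 in transgenic and from 0.23 to -0.17 in wild-type rats, brain minus testis. All 6 genes remained higher in brain under it, and Junb, Nr4a1 and Dusp1 remained called. The smallest value was then 0.985 for Nr4a1 in transgenic rats.

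**Figure D5:**
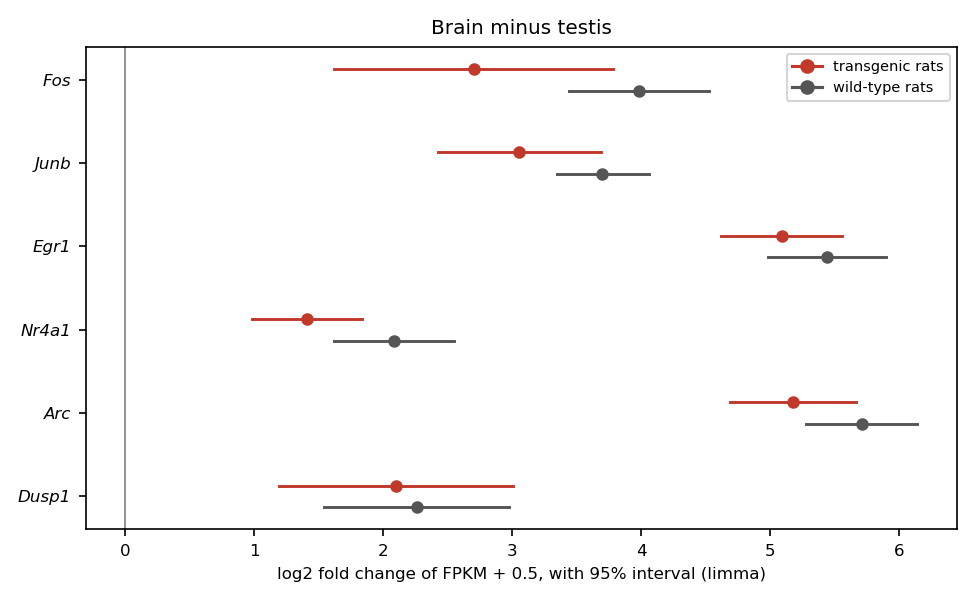
Log2 fold change of FPKM + 0.5, brain minus testis, in transgenic (red) and wild-type rats (grey), with the 95% interval from limma. Fos, Egr1 and Arc passed the filter only through brain, so their values and intervals are a description and no test. Arc and Egr1 have the largest values and Nr4a1 and Dusp1 the smallest, and each transgenic point is left of its wild-type point.

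The order of the genes by level also differed between the tissues. In wild-type brain the means ran from Egr1 (48.6 FPKM) through Arc (47.6), Junb (31.7), Nr4a1 (30.5) and Dusp1 (18.3) to Fos (10.8), and the order was the same in transgenic brain. The library ranges of each pair of neighbours in that order overlapped in both groups. Egr1 was above Arc in 3 of 3 transgenic and 2 of 3 wild-type brain libraries, and Dusp1 was above Fos in all 3 libraries of each brain group. In testis Nr4a1 came first, at 7.76 FPKM in transgenic and 6.67 FPKM in wild-type rats. It did not overlap with Dusp1, the next in order, at 2.63 FPKM in transgenic and 3.34 FPKM in wild-type rats. Junb and Egr1 followed, and Arc and Fos were last. Dusp1 and Junb overlapped in transgenic testis and not in wild-type testis. The ranges of Arc and Fos overlapped in transgenic testis and not in wild-type testis.

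Whether the genotype difference itself differed between the tissues could be tested for the 3 genes above 1 FPKM in each. The interaction, the brain difference minus the testis difference, was -0.67 for Nr4a1 (SE 0.28, adjusted p = 0.561), -0.64 for Junb (SE 0.34, adjusted p = 0.707) and -0.16 for Dusp1 (SE 0.54, adjusted p = 0.983 by limma) on the log2 scale. None was called, against 46 of 10917 genes (0.421%). Before adjustment Nr4a1 alone was below 0.05, as were 8.04% of all genes. Without the filter, limma gave -1.28 for Fos (adjusted p = 0.636), -0.35 for Egr1 (adjusted p = 0.819) and -0.53 for Arc (adjusted p = 0.731).

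Some other genes followed the immediate early genes across the brain libraries, and about as many ran opposite to them. Likeness was measured as Pearson's r, over the 6 brain libraries, with the mean centred log2(FPKM + 0.5) of the 6 genes, and is given as a description. The 6 genes themselves had r from 0.94 (Egr1) to 0.98 (Fos), as parts of that mean. Of 13821 other genes, 19 (0.137%) reached an r of 0.95, and 23 were as strongly opposed. Egr1 itself did not reach that cut, and with 6 libraries the count does not show whether the pattern is particular to the 6 genes. Of the 19, 2 had a residual SD in the top 10% of all genes, a share near that of all genes. The most alike was ENSRNOG00000046845 (r = 0.991), a low transcript at 0.628, 1.22 and 1.89 FPKM in transgenic brain, against 1.28, 2.09 and 2.19 FPKM in wild-type brain. Next was ENSRNOG00000022623 (r = 0.989), at 6.56, 7.02 and 8.17 FPKM in transgenic brain, against 7.32, 8.41 and 8.34 FPKM in wild-type brain. Its highest brain library exceeded its lowest 1.28-fold.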

How the data were processed

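Trizol RNA went into Illumina TruSeq libraries, per the labels' protocols. The submitters' processing notes name Bowtie 1.0.1 and the rat build Rnor_6.0. The annotation, the counter and its use of strand were not given in the sources used here. FPKM values of 25908 Ensembl identifiers in 12 libraries were deposited by the authors as 1 table. The table holds no gene names, and the reference table matched 0 identifiers, so names come from the definition of the gene set. The only check of them here was length. The counted length of each gene, recovered from the FPKM steps, was no longer than the span of its RefSeq gene. This was 1783 bp against 1785 bp for Junb, but 2660 bp against 20892 bp for Nr4a1, so the check is weak. For want of names, wider lists of activity genes, cell type markers and rat Dnmt3a were not analysed here. The members and lists were chosen with earlier results of these data known.

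Whole reads were recovered from FPKM steps, within 0.002 reads, for 100% of the genes, against 0% after values had been moved by about 1%. The listed genes made up 99.987% or more of the reads in each library. Replicates were counted separately, since chi-square per gene between them was 4.79 to 14.2. Intervals of read counts and of ratios of reads are exact Clopper-Pearson at 95%, and those of log2 fold changes are from limma.

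Genotypes and tissues were compared on log2(FPKM + 0.5) by limma 3.58.1 (R 4.3.3), using its trend option, for genes averaging 1 FPKM or more (interaction: in each tissue). Each fit held only the groups compared, and the interaction held all 12 libraries. With 3 libraries against 3, an exact permutation test cannot go below p = 0.1 and was not used. Fits and read recovery were tested on simulated data. Named genes are the 6 and the 2 most like them in brain by Pearson's r. Alternatives changed the pseudocount, filter, scaling, trend, libraries fitted and replicate term, used voom on recovered reads and left out each library. Other steps ran in Python 3.11.15 (numpy 2.4.6, scipy 1.17.1, pandas 2.3.3, matplotlib 3.10.9).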

Additional observations from a re-analysis of the deposited data

How the results depend on the processing

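The count of immediate early genes called was 0 under each alternative in both genotype comparisons and in the interaction. Junb, Nr4a1 and Dusp1 were called in both tissue comparisons under each alternative that tested them. Directions held for each gene that the filter of 1 FPKM let into a comparison, except the interaction of Dusp1, which was -0.56 to 0.28 without single libraries, with 0.28 without transgenic brain replicate 1 and 0.06 without wild-type brain replicate 3. By an alternative chosen after seeing the data, the ratio of Fos reads, transgenic over wild-type testis, was 0.714 to 2.35 without single libraries, against 1.79, and 0.714 without transgenic testis replicate 3. The number of the 6 genes in the top 10% by brain spread was 3, against 6 with a filter of 5 FPKM and 2 to 5 without single libraries (5 without wild-type brain replicate 2). The background counts moved more. Brain calls were 7 with a pseudocount of 0.1, 8 with a filter of 5 FPKM, 57 with all 12 libraries in 1 fit, 0 with the replicate block and 2 to 8 without each library in turn, against 16. Testis calls were 51 with the stricter filter, 247 with all 12 libraries, 190 with voom, 39 with the replicate block and 20 to 80 without single libraries, against 84; wild-type replicates 1, 2 and 3 (41, 20 and 37) and transgenic replicate 2 (47) each moved it by over 1.5 times. Interaction calls were 103 without a filter, 30 with the stricter one, 1 with the replicate block and 25 to 44 without single libraries, against 46 (25 and 29 without transgenic brain replicates 1 and 3, 27 without transgenic testis replicate 2, 28 without wild-type testis replicate 3). The cause was not tested. The replicate numbers were not taken to pair samples. Deviations of same-numbered libraries correlated at -0.219 to 0.117 across genes. In the other genotype, 0 of 6 brain libraries, but 6 of 6 testis libraries, were closest to their own number. Between tissues, 4 of 6 transgenic and 2 of 6 wild-type libraries were closest to their own number. The library codes share a letter and a number between brain and testis, and the labels do not say whether these mark the same rat. The main tissue and interaction fits treated the libraries as separate, with the replicate block as an alternative. Depth limits Fos, Egr1 and Arc in testis, where a library held 2 to 55 of their reads.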

Other observations

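The ratio of Fos to Junb mRNA differed between libraries, and protein was not measured. The level of Fos per level of Junb, in FPKM, was 0.141, 0.173 and 0.304 in transgenic brain, against 0.279, 0.364 and 0.366 in wild-type brain, so that transgenic replicate 3 fell among the wild-type libraries. In testis it was 0.104, 0.0449 and 0.241 in transgenic libraries, against 0.146, 0.0362 and 0.148 in wild-type libraries, where Fos rested on 2 to 20 reads. Within transgenic testis, replicate 3 had the highest level of 5 of the 6 genes, with Arc as the exception. No single wild-type testis library led in this way. Replicate 2 was highest for Junb, Nr4a1 and Dusp1, and replicate 3 for Fos, Egr1 and Arc. Most of these leads, in both genotypes, were within counting error. Arc stood at 0.414 FPKM in wild-type replicate 3 and 0.413 FPKM in replicate 1. The counting interval of the highest library was clear of the others only for Fos in transgenic and Dusp1 in wild-type testis.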
